A study of Mus musculus with 10 samples.

Results

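The innate immune sensors and the genes that act with them in inflammasomes were examined in 2 sorted populations of mouse intestinal epithelial cells. The genes were the protein-coding entries whose symbols name a Toll-like receptor, NOD1 or NOD2, an NLRP, NLRC, NLRX or NAIP protein, AIM2, the adaptor ASC (Pycard), one of the caspase genes Casp1, Casp4, Casp8 and Casp12, a gasdermin, a Toll-like receptor adaptor (Myd88, Ticam or Tirap) or a kinase of the Ripk1 to Ripk3 group. The rule took 61 of 22046 protein-coding genes, in a table of 54532 genes, and used no measured value. The mice carried a transgene in which the Gucy2c promoter drives green fluorescent protein, on a CD1/ICR background, were litter-matched and were 10 weeks old. From each of 5 mice, 20000 cells with high fluorescence (GUCY2C hi) and 20000 with medium fluorescence (GUCY2C med, also called Lo in the labels) were sorted and sequenced, which gave 10 libraries. Both groups carried the same transgene, and its single reporter line is what defined them, so no library came from cells without it. GUCY2C is the guanylyl cyclase receptor of the intestinal epithelium.

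Toll-like receptors and NOD proteins recognize parts of microbes such as lipoproteins, flagellin and peptidoglycan, and signal through adaptors to NF-kB and interferon genes. Inflammasomes are complexes in which a sensor, often an NLR protein, recruits ASC and activates caspase-1, which cleaves interleukins and gasdermin D. Cleaved gasdermins form pores in the membrane and can end in pyroptosis, and in the gut epithelium this pathway is known for the expulsion of infected cells.

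Library totals ran from 13090212 to 13520800 counts in GUCY2C hi cells and from 10903958 to 15307932 in GUCY2C med cells. Gucy2c itself, the check of the sort, was at 1322 ± 526 cpm (counts scaled to library size by CPM with TMM factors; SD, n = 5) in GUCY2C hi and 404 ± 64.7 in GUCY2C med libraries, and only in mouse 15 was it close between the pair, at 549 against 456 cpm. Its log2 fold change was 1.71 (adjusted p = 0.00187 by edgeR). With the mouse as a block the adjusted p was 0.0115 in edgeR and 0.00547 in limma-voom. Summed over 15 enteroendocrine markers, the level was 39381 to 157292 cpm in GUCY2C hi and 120 to 321 cpm in GUCY2C med libraries. The 15 enterocyte markers summed to 55778 to 74575 cpm in GUCY2C med libraries. In GUCY2C hi libraries these reached 3322 to 4402 cpm in mice 2, 7 and 14 but 31046 and 31560 cpm in mice 12 and 15, so these 2 libraries stood apart. Goblet (3060 to 23486 against 4922 to 13118 cpm) and Paneth lists (6177 to 45637 against 6529 to 15345 cpm) overlapped between the groups. The tuft list was at 27.2 to 39.6 against 7.47 to 22.4 cpm, and the stem list at 299 to 1112 against 927 to 1331 cpm. Of the 7 tested tuft markers edgeR called only Sh2d6 higher (log2 fold change 2.74, adjusted p = 0.00602). Dclk1, at 35.0 of the 39.6 cpm in the GUCY2C hi library of mouse 15, was at 0.29 (adjusted p = 0.791) and Pou2f3 at -0.54 (adjusted p = 0.441).

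Of the immune lists, 13 T cell and intraepithelial lymphocyte markers summed to 34.9 to 304 cpm in GUCY2C hi and 37.2 to 209 cpm in GUCY2C med libraries, highest in the GUCY2C hi libraries of mice 12 and 15. The 14 macrophage and dendritic cell markers summed to 26.1 to 111 against 4.34 to 11.1 cpm. Without C1qa, the other 13 of that list were at 3.31 to 12.4 against 4.26 to 10.2 cpm, and Adgre1 and Itgax had at most 2 counts in any library. Of 10 neutrophil and mast cell markers, S100a8, S100a9, Ly6g and Retnlg were at 0 in every library, and the list summed to 6.68 to 21.3 against 1.44 to 4.58 cpm, nearly all of it Kit in GUCY2C hi libraries. B and plasma cell markers stayed at or under 6.43 cpm, mesenchyme and endothelium at or under 16.9 cpm, and microglia markers were at 170 to 361 against 120 to 175 cpm. Forebrain neuron markers were at 474 to 3211 against 43.4 to 1677 cpm, highest in the GUCY2C hi library of mouse 15. The lowest value was the GUCY2C med library of mouse 7, the others of that group being at 652 cpm or more. The part of these transcripts in the results that follow was not tested.

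Among the 61 genes, 36 passed the filter on low values (over 0.5 cpm in at least 3 libraries), 9 were counted but stayed under it, and 16 had no count in any library. In all, 6 receptors and gasdermins rose in GUCY2C hi cells: Gsdma, Tlr2, Tlr5, Tlr12, Gsdme and Nod1. A further 8 genes, of inflammasomes, adaptors and cell death, were lower: Casp1, Gsdmd, Casp4, Casp8, Nlrp6, Naip1, Ripk3 and Ticam1. The calls were made by edgeR's quasi-likelihood test at a Benjamini-Hochberg adjusted p under 0.01 over 15703 genes, of which 13.9% were called higher and 8.79% lower. Of the 36 tested members 16.7% were called higher and 22.2% lower, so the share that rose was near the background. With the mouse as a block, 5 members were called higher and 5 lower, where this fit called 8.24% of all genes higher and 4.96% lower. No call was made for the other 22 tested members. Their median together with the called ones was a log2 fold change of -0.65, against 0.09 over all genes tested. Of the members 13 had values above 0 and 23 below, and of all genes tested 8574 above and 7129 below. The 5 GUCY2C hi values lay above all 5 GUCY2C med values for 4 members and below them for 7, where 16.7% and 13.2% of all genes tested did so. Since these are sums over sorted cells, fewer cells of a type and less RNA per cell cannot be told apart.

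**Figure D1:**
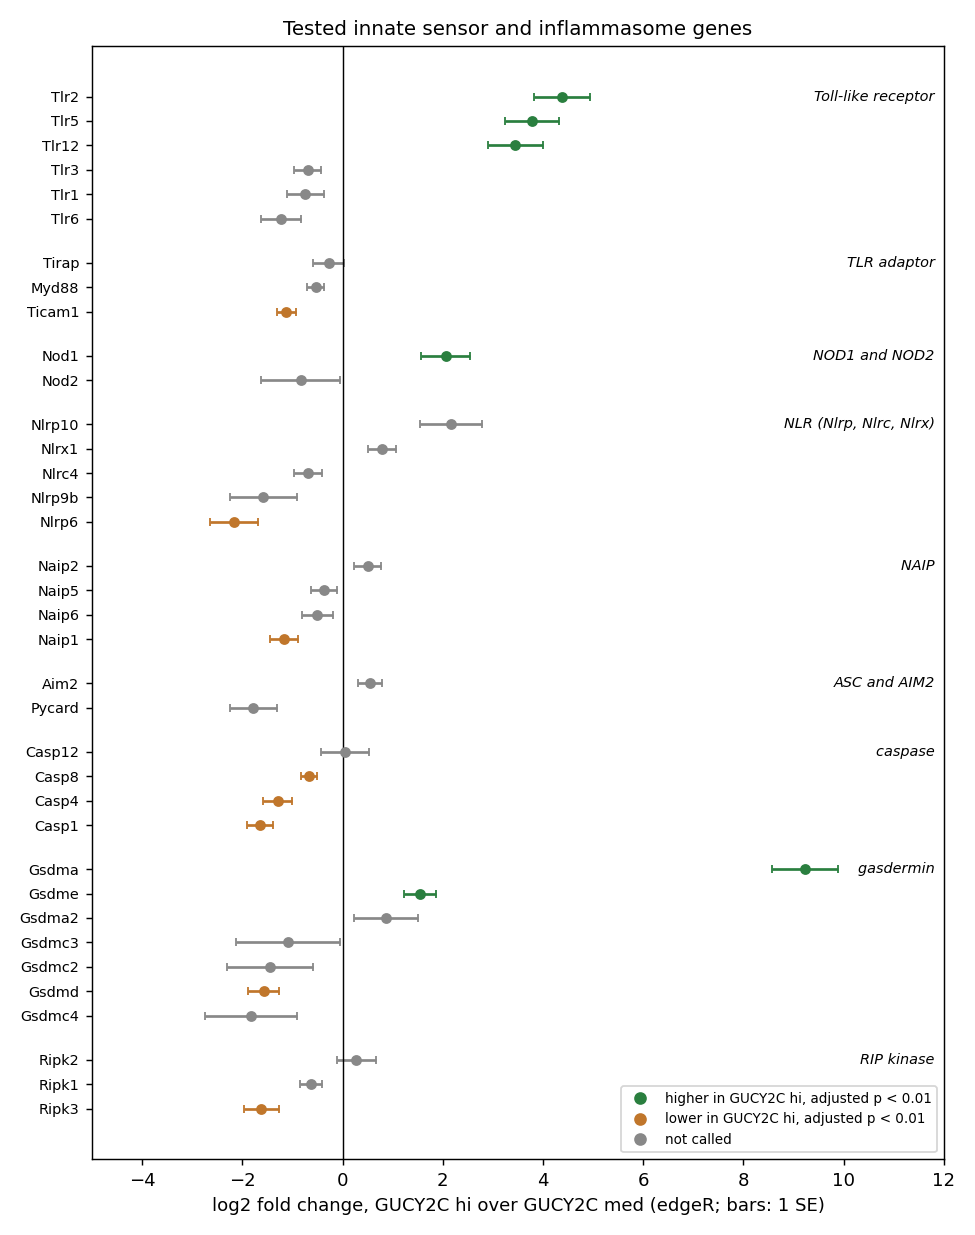
Log2 fold change of GUCY2C hi over GUCY2C med by edgeR for the 36 tested genes, by family. Bars are 1 SE, derived from the fold change and its F statistic. Green and orange mark the 6 genes called higher and the 8 called lower. Gsdma, at 9.23, lies farthest from 0, and called caspases all lie to the left.

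Of 6 Toll-like receptors tested, 3 rose and the other 3 were not called. Tlr2, the receptor for bacterial lipoproteins that pairs with TLR1 or TLR6, was at 42.5, 45.1, 15.1, 78.0 and 19.96 cpm in the GUCY2C hi libraries of mice 2, 7, 12, 14 and 15. The GUCY2C med libraries of the same mice had 2.53, 1.61, 0.36, 2.18 and 2.31 cpm. Every GUCY2C hi value was above every GUCY2C med value, and mice 12 and 15 were the lowest of the high group. The log2 fold change was 4.38 (SE 0.56, adjusted p = 0.000185). Tlr5, the flagellin receptor, had 186 counts over the GUCY2C hi libraries (1.01 to 4.86 cpm) and 3 counts over the GUCY2C med libraries. The pooled ratio was 52.3 (95% counting interval 17.6 to 256, which covers counting error only). In edgeR the fitted log2 fold change was 3.78 (SE 0.53, adjusted p = 0.000388). Tlr12, which recognizes profilin of protozoa in mice, had 118 counts (0.31 to 3.47 cpm) against 1 count, a pooled ratio of 99.5 (17.5 to 3965). Its fitted log2 fold change in edgeR was 3.44 (SE 0.55, adjusted p = 0.000834). Neither gene overlapped between the groups. The calls for Tlr2, Tlr5 and Tlr12 held whichever library was left out.

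Both partners of TLR2 went without a call and with values below 0. Tlr1 had a log2 fold change of -0.75 (SE 0.37, adjusted p = 0.132), at 2.07 ± 1.04 against 3.56 ± 0.49 cpm. Tlr6 had -1.23 (SE 0.40, adjusted p = 0.0288), at 0.676 ± 0.26 against 1.78 ± 0.69 cpm. Tlr3, the receptor for double-stranded RNA, was also not called (-0.69, SE 0.27, adjusted p = 0.0596). On the per-length scale, as deposited FPKM, Tlr2 in GUCY2C hi cells was at 14.6 ± 8.35, above Tlr3 at 3.49 ± 0.70, Tlr5 at 1.25 ± 0.72, Tlr1 at 1.07 ± 0.49 and Tlr12 at 0.992 ± 0.66. In GUCY2C med cells the highest of the 6 tested receptors by mean FPKM was Tlr3 at 4.74 ± 1.27, and Tlr2 was at 0.541 ± 0.27. The other Toll-like receptors did not pass the filter: Tlr4, the lipopolysaccharide receptor, had 4 and 3 counts over the groups, Tlr7 had 8 and 0, and Tlr8, Tlr9, Tlr11 and Tlr13 had none. A count of 0 allows up to 0.181 to 0.281 cpm in a single library.

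The 250 bases before the RefSeq start of each of the 3 called receptors are shown because these genes rose together. In Tlr2 the capitals mark an E-box of the form CAGNTG on either strand, the core that basic helix-loop-helix factors such as NEUROD1 bind. The sequences are from RefSeq, build GRCm38.p6, 5′ to 3′ on the strand of the gene, at chr3:83841609-83841858 (Tlr2, minus strand), chr1:182954538-182954787 (Tlr5, plus strand) and chr4:128618620-128618869 (Tlr12, minus strand). For Tlr2 the gene as counted reaches to position 83841767, so part of the stretch shown lies within the counted gene. Promoters were matched for 48 of the 61 genes.
Tlr2: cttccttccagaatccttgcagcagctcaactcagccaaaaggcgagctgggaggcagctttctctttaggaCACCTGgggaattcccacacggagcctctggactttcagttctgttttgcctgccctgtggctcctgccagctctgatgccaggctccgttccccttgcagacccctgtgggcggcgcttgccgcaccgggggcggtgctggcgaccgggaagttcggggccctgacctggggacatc
Tlr5: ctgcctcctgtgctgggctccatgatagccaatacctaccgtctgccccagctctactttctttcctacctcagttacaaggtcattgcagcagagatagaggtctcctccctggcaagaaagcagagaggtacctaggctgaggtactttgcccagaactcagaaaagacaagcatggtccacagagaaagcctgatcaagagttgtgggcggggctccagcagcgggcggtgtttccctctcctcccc
Tlr12: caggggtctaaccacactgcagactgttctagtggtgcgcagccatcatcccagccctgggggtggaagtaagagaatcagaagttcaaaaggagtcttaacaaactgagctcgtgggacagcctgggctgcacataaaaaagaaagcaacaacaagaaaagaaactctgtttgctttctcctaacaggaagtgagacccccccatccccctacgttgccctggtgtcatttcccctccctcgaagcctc

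The motif letters were searched in all 32851 promoters of this length in the table, where 44.8% held CAGNTG, 12.4% TATAAA and 0.384% the HNF4-type CAAAGTCCA, on either strand. Of the 5 higher genes with a promoter in the table (Tlr2, Tlr5, Tlr12, Gsdme and Nod1), 1 held CAGNTG and none held the others. Of the 7 lower ones, 2 held CAGNTG (Casp4 and Nlrp6), 1 TATAAA (Naip1), and none the others.

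**Figure D2:**
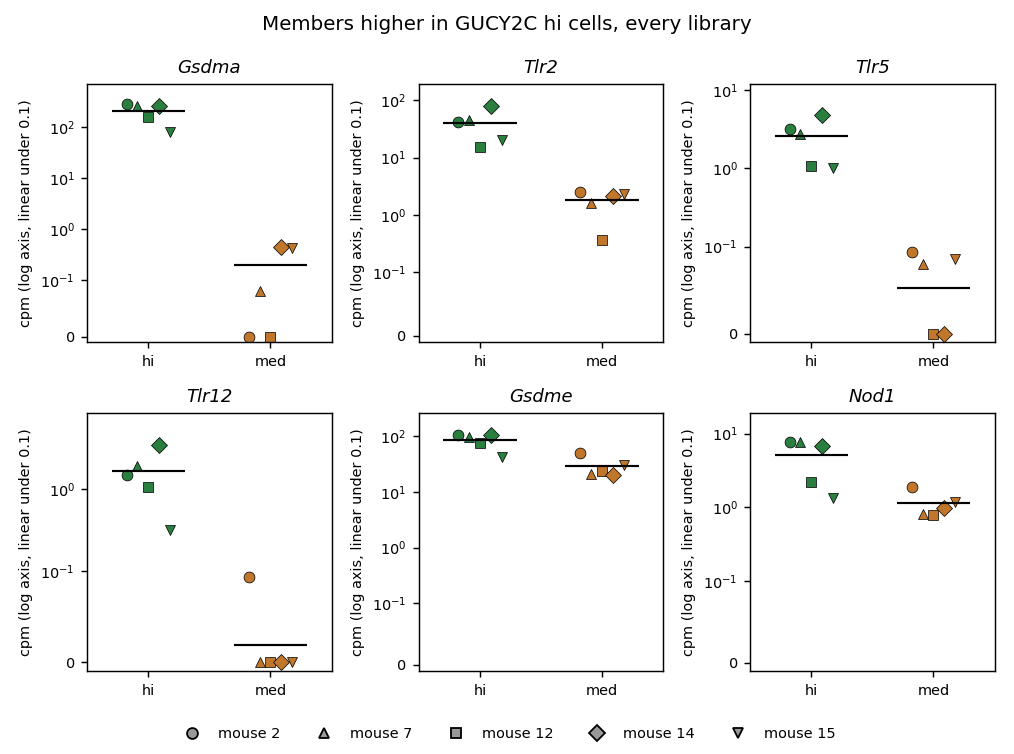
Counts scaled to library size (cpm) in every library for the 6 genes called higher, on log axes that turn linear under 0.1; marker shapes stand for mice and the horizontal line for the group mean. GUCY2C hi values of Gsdma, Tlr2, Tlr5 and Tlr12 all lie above the GUCY2C med values, while Gsdme and Nod1 overlap through mouse 15.

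Of the 4 adaptors, 3 were tested and Ticam1 was called. Ticam1 (TRIF, the adaptor of TLR3 and TLR4) was at 15.7, 9.77, 12.1, 13.0 and 11.7 cpm in GUCY2C hi and 31.6, 28.3, 18.8, 25.5 and 31.8 cpm in GUCY2C med libraries of mice 2, 7, 12, 14 and 15. The groups did not overlap, and the log2 fold change was -1.12 (SE 0.19, adjusted p = 0.00135). Myd88, the adaptor of most Toll-like receptors, was at 29.6 ± 4.75 against 43.0 ± 7.25 cpm and was lower in all 5 mice, but was not called (-0.53, SE 0.17, adjusted p = 0.0262). Tirap, which bridges MYD88 to TLR2 and TLR4, was at 3.255 ± 1.29 against 3.99 ± 1.10 cpm (adjusted p = 0.534). Ticam2 had 10 and 2 counts over the groups. Myd88 shares its position with Acaa1a on the other strand and Tirap with Srpr, and since the strand setting of the counting is not given in the sources used here, their counts are uncertain.

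Of the peptidoglycan sensors, Nod1 rose. It had 7.73, 7.72, 2.20, 6.71 and 1.32 cpm in GUCY2C hi libraries and 1.87, 0.80, 0.79, 0.98 and 1.198 cpm in GUCY2C med libraries of mice 2, 7, 12, 14 and 15, higher in each mouse. The value of mouse 15 fell within the GUCY2C med range, and the log2 fold change was 2.06 (SE 0.50, adjusted p = 0.00737). This call was lost with the mouse as a block (adjusted p = 0.0252) and without any single library other than the GUCY2C hi ones of mice 12 and 15 and the GUCY2C med one of mouse 2. Nod2, the sensor of muramyl dipeptide that is best known in Paneth cells, was near the floor, with 16 and 32 counts over the groups (adjusted p = 0.447). Ripk2, the kinase downstream of both, was at 4.49 ± 1.89 against 3.69 ± 1.55 cpm (adjusted p = 0.626).

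Within the NLR family, the epithelial inflammasome sensor Nlrp6 fell. Its levels were 34.2, 13.8, 76.2, 15.8 and 82.9 cpm in GUCY2C hi and 233, 187, 165, 164 and 248 cpm in GUCY2C med libraries of mice 2, 7, 12, 14 and 15. No value overlapped, mice 12 and 15 held the 2 highest GUCY2C hi values, and the log2 fold change was -2.16 (SE 0.48, adjusted p = 0.00499). It was -3.20 without the GUCY2C hi libraries of mice 12 and 15. The call was lost without the GUCY2C hi library of mouse 2 or 7 or the GUCY2C med library of mouse 2, 12 or 15, where the adjusted p was 0.011 to 0.0194.

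The remaining NLR genes that were tested were low. Nlrx1, which sits in mitochondria, was at 5.97 ± 1.28 against 3.42 ± 1.05 cpm and higher in 5 of 5 mice, but not called (adjusted p = 0.0426). Nlrp10 had 39 counts in GUCY2C hi and 0 in GUCY2C med libraries, at least 10.97-fold higher against a floor of 3 counts over the group. It was not called (adjusted p = 0.0276), and its GUCY2C hi counts came from mice 2, 7, 12 and 14. Nlrp9b, known from rotavirus infection of the epithelium, had 21 against 67 counts (adjusted p = 0.0825). Nlrc4, the partner of the NAIP proteins, was at 9.35 ± 2.01 against 15.2 ± 5.74 cpm (adjusted p = 0.0676).

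Of the 4 NAIP genes, which sense flagellin and bacterial secretion needles, Naip1 alone was called. It was at 4.64, 7.96, 4.39, 3.08 and 4.85 cpm against 13.9, 10.8, 7.49, 10.7 and 14.4 cpm, lower in every mouse, with GUCY2C hi mouse 7 above GUCY2C med mouse 12. The log2 fold change was -1.17 (SE 0.28, adjusted p = 0.00689), and the call was lost with the mouse as a block (adjusted p = 0.0157). Leaving out libraries one at a time, it held only without GUCY2C hi mouse 7 or GUCY2C med mouse 12. Naip2 (0.50), Naip5 (-0.36) and Naip6 (-0.51) had log2 fold changes with adjusted p of 0.167, 0.305 and 0.226. These 4 are close copies in a cluster on chromosome 13, so the split of reads between them is uncertain.

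ASC, encoded by Pycard at chr7:127989708-127993867, joins sensors to caspase-1. Pycard was at 65.0, 26.7, 197, 52.8 and 124 cpm in GUCY2C hi and 188, 401, 371, 356 and 280 cpm in GUCY2C med libraries of mice 2, 7, 12, 14 and 15. It was lower in every mouse, and the GUCY2C hi value of mouse 12 alone reached into the other group. The log2 fold change was -1.78 (SE 0.47), which missed the threshold at an adjusted p of 0.0111. It passed without the GUCY2C hi library of mouse 12, and without those of mice 12 and 15 it was -2.71 (adjusted p = 0.000178). It also passed with the mouse as a block in limma-voom (adjusted p = 0.0074), though not in edgeR (adjusted p = 0.0169). Aim2, the sensor of cytosolic DNA, was at 6.97 ± 1.66 against 4.73 ± 0.88 cpm, higher in 5 of 5 mice and not called (0.54, adjusted p = 0.0996). Its annotated span overlaps Cadm3 on the other strand.

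Of the 4 caspase genes, 3 fell and Casp12 did not pass the test. Casp1, the protease of the inflammasome, was at 74.6, 48.2, 115, 57.3 and 116 cpm in GUCY2C hi and 241, 322, 244, 239 and 242 cpm in GUCY2C med libraries of mice 2, 7, 12, 14 and 15. The groups were far from overlapping, and the log2 fold change of -1.65 (SE 0.26, adjusted p = 0.000801) was called whichever library was left out. Casp4, the mouse gene of the lipopolysaccharide-binding caspase-11, was at 6.73 ± 2.08 against 16.8 ± 5.61 cpm (SD, n = 5), with no overlap. Its log2 fold change was -1.29 (SE 0.29, adjusted p = 0.00493), a call that, with single libraries removed, held only without GUCY2C hi mouse 15 or GUCY2C med mouse 12 or 14. Casp8, which serves death receptors and restrains necroptosis, was at 79.7 ± 14.2 against 127 ± 9.25 cpm, again with no overlap. Its change was smaller (-0.67, SE 0.16, adjusted p = 0.00677), and the call was lost with the mouse as a block (adjusted p = 0.0241) and on removal of any library other than GUCY2C hi mouse 12 or 15. Casp12, next to Casp4 on chromosome 9, was at 1.04 ± 0.66 against 0.999 ± 0.45 cpm (adjusted p = 0.956).

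The 250 bases before the starts of Casp1 and Nlrp6 are shown as examples of genes that fell, from the same source, at chr9:5298267-5298516 and chr7:140920652-140920901, both on the plus strand, with the E-box form in capitals.
Casp1: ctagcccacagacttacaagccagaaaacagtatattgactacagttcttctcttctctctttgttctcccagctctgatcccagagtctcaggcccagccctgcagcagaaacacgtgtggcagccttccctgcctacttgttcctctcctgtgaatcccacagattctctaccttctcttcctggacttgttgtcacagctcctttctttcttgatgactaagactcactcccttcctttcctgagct
Nlrp6: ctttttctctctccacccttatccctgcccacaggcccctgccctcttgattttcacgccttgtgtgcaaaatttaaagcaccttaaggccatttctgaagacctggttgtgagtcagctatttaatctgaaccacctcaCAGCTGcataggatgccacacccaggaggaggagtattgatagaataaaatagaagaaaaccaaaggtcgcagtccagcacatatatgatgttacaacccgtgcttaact

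**Figure D3:**
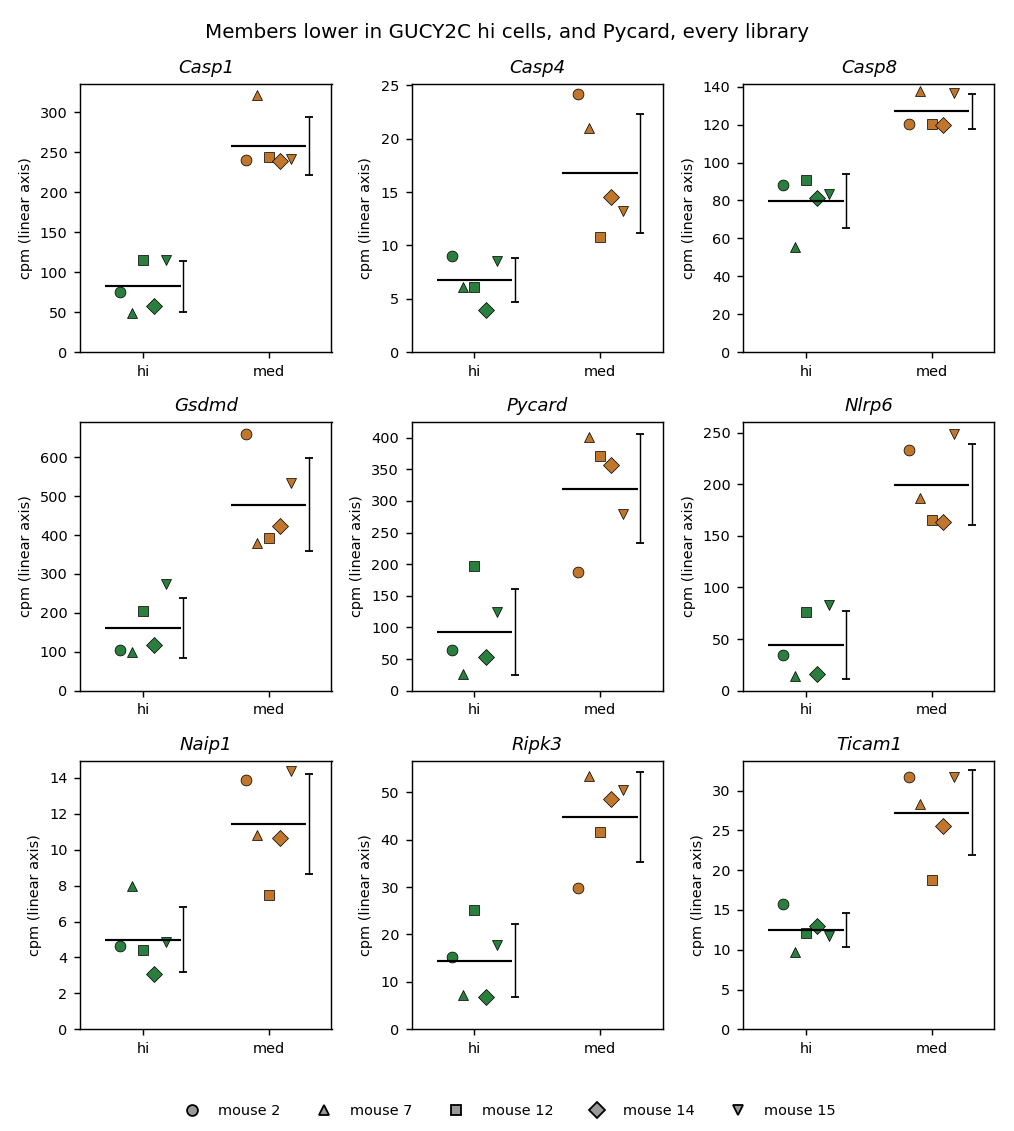
Counts scaled to library size (cpm) on linear axes from 0 in every library for the 8 genes called lower and Pycard; marker shapes stand for mice, the horizontal line is the mean and the bar 1 SD (n = 5). GUCY2C hi values of mice 12 and 15 (squares and inverted triangles) lie high within their group for Casp1, Gsdmd, Pycard, Nlrp6 and Ripk3.

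The gasdermins, the pore proteins, moved in opposite directions. Gsdma, a gasdermin known from skin epithelium, had 4162, 4200, 2007, 3339 and 1254 counts in GUCY2C hi libraries of mice 2, 7, 12, 14 and 15 and 0, 1, 0, 6 and 5 counts in GUCY2C med libraries. In cpm it was at 280, 253, 152, 257 and 79.0 against values of at most 0.451, so that the groups were separated in every mouse. The mean was 204 ± 85.7 against 0.192 ± 0.228 cpm, a log2 fold change of 9.23 (SE 0.66, adjusted p = 4.9e-06). Gsdma lies at chr11:98664351-98677708 on the plus strand. Its neighbours did not share this difference: Psmd3 was at 121 against 186 cpm, Ormdl3 at 114 against 116 cpm and the related Gsdma2 at 0.660 against 0.296 cpm (adjusted p = 0.32). Gsdma3 had 4 and 0 counts over the groups, and reads that fit more than 1 of these 3 copies could have been split.

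Gsdme, another pore-forming gasdermin, also rose. It was at 106, 98.0, 75.2, 107 and 43.3 cpm in GUCY2C hi and 51.0, 21.1, 23.8, 20.5 and 30.2 cpm in GUCY2C med libraries of mice 2, 7, 12, 14 and 15. It was higher in every mouse, mouse 15 being within the range of the other group, with a log2 fold change of 1.55 (SE 0.31, adjusted p = 0.00306) that was called whichever library was left out. Its end overlaps Mpp6 on the other strand, which was at 35.0 against 37.8 cpm (adjusted p = 0.687).

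Gsdmd, the target of caspase-1 and caspase-11, fell. It was at 104.6, 100.03, 204, 117 and 276 cpm in GUCY2C hi and 661, 379, 393, 423 and 533 cpm in GUCY2C med libraries of mice 2, 7, 12, 14 and 15. No value overlapped, the GUCY2C hi libraries of mice 12 and 15 were the highest of their group, and the log2 fold change was -1.58 (SE 0.32, adjusted p = 0.00302). The call was lost without the GUCY2C hi library of mouse 2 or 7 or the GUCY2C med library of mouse 2 or 15, with adjusted p up to 0.0132. Beside it on chromosome 15, Naprt fell by a similar amount (-1.66, adjusted p = 0.00431).

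The gasdermin C cluster varied widely between libraries of the same group. Gsdmc4 was at 1.88, 0.06, 12.4, 3.08 and 2.71 cpm in GUCY2C hi and 4.59, 5.14, 10.4, 45.4 and 7.45 cpm in GUCY2C med libraries of mice 2, 7, 12, 14 and 15, and the log2 fold change of -1.83 had an SE of 0.92 (adjusted p = 0.14). Gsdmc2 (-1.45, adjusted p = 0.213) and Gsdmc3 (-1.08, adjusted p = 0.458) were not called either, and Gsdmc had no count. Gsdmc2 was lower in GUCY2C hi in all 5 mice, and Gsdmc3 and Gsdmc4 in 4 of 5. The copies are close relatives, and the split of reads between them is uncertain.

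Compared per length, the gasdermin with the highest mean in both groups was Gsdmd. It had 209 ± 108 FPKM in GUCY2C hi and 512 ± 145 FPKM in GUCY2C med cells. Next in GUCY2C hi cells came Gsdma at 82.6 ± 36.3 and Gsdme at 33.3 ± 10.7 FPKM. In GUCY2C med cells Gsdme at 9.49 ± 4.62 and Gsdmc4 at 6.44 ± 7.61 FPKM followed, within each other's spread, and Gsdma was at 0.0609 ± 0.072 FPKM. On the same scale Casp1 was at 60.3 ± 23.3 against 157 ± 27.1 and Pycard at 46.6 ± 31.9 against 135 ± 37.2 FPKM.

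**Figure D4:**
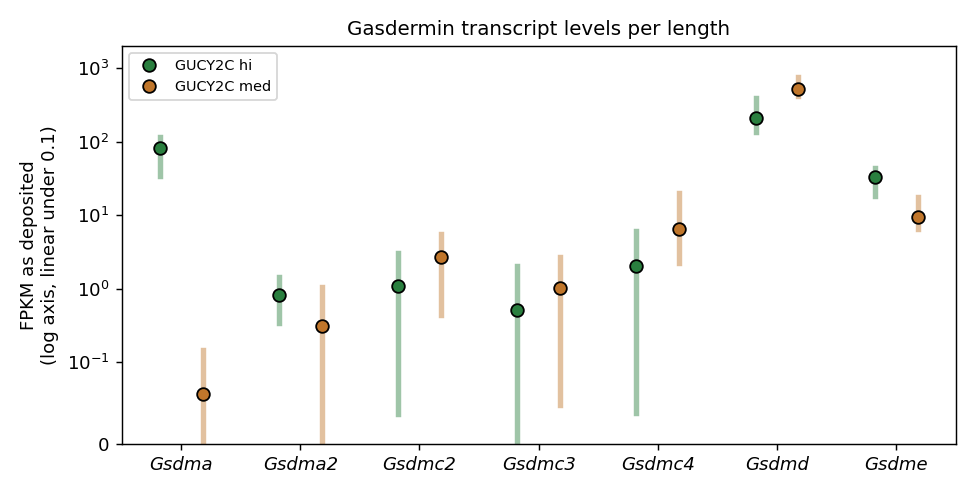
Deposited FPKM of the 7 tested gasdermins on a log axis that turns linear under 0.1; points are means of 5 libraries and bars run from the lowest to the highest library. Gsdma is near 0 in GUCY2C med and at 82.6 in GUCY2C hi cells, while Gsdmd is highest in both groups.

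The RIP kinases, which pass death receptor and Toll-like receptor signals on to NF-kB or necroptosis, gave 1 call. Ripk3, the necroptosis kinase, was at 15.3, 7.30, 25.2, 6.86 and 17.7 cpm in GUCY2C hi and 29.8, 53.5, 41.7, 48.5 and 50.5 cpm in GUCY2C med libraries of mice 2, 7, 12, 14 and 15. There was no overlap, and the GUCY2C hi libraries of mice 12 and 15 were the highest of their group. The log2 fold change was -1.62 (SE 0.35, adjusted p = 0.00414), and -2.15 without these libraries. With the mouse as a block the adjusted p was 0.0136 in edgeR, where the call was lost, and 0.00737 in limma-voom, where it held. The call was also lost without the GUCY2C hi library of mouse 2 or 7 or the GUCY2C med library of mouse 12, 14 or 15. Ripk1 was lower in every mouse at 18.01 ± 2.75 against 27.9 ± 8.64 cpm but not called (-0.63, adjusted p = 0.0432), and it overlaps the more abundant Serpinb6a on the other strand.

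Within mice, the lower genes were set beside the enterocyte markers. The enterocyte list in GUCY2C hi was 5.90%, 5.96%, 45.5%, 6.56% and 42.7% of its GUCY2C med level in mice 2, 7, 12, 14 and 15. Nlrp6 was at 14.6%, 7.38%, 46.1%, 9.65% and 33.4%, Gsdmd at 15.8%, 26.4%, 52.0%, 27.6% and 51.6%, and Casp1 at 31.0%, 14.98%, 47.1%, 24.0% and 47.8%. In each of these 3 genes, and for Pycard (6.66% to 53.1%) and Casp4 (27.1% to 64.6%), the values of mice 12 and 15 were the highest. The other 4 of the 8 lower genes did not keep that order in these percentages. Ripk3 (13.6% to 60.4%), Ticam1 (34.5% to 64.4%) and Casp8 (40.1% to 75.2%) had mouse 15 below mouse 2, and Naip1 (28.9% to 73.4%) was highest in mouse 7.

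**Figure D5:**
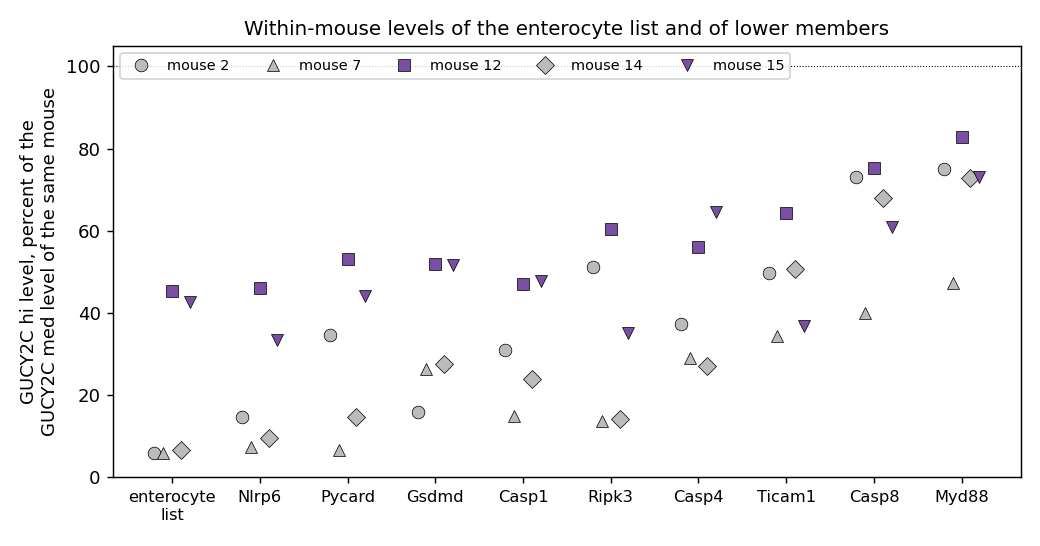
GUCY2C hi level as a percentage of the GUCY2C med level of the same mouse, for the summed enterocyte list, 7 of the 8 genes called lower (Naip1 is not drawn), Pycard and Myd88; purple marks mice 12 and 15 and the dotted line 100%. Mice 12 and 15 lie highest for the enterocyte list, Nlrp6, Pycard, Gsdmd, Casp1 and Casp4, but not for Ripk3, Ticam1 and Casp8.

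The higher genes were set beside the enteroendocrine list on another scale, within GUCY2C hi libraries only. Gsdma had 2.05, 1.89, 1.55, 1.64 and 2.01 cpm per 1000 cpm of the summed enteroendocrine markers in the GUCY2C hi libraries of mice 2, 7, 12, 14 and 15, a spread of 1.32 times between lowest and highest. Gsdme spread 1.61 times on this scale. Tlr2 spread 3.29 times (0.154 to 0.507), Tlr5 2.85 times, Tlr12 2.76 times and Nod1 2.57 times. Differences between these spreads were not tested, and Tlr5, Tlr12 and Nod1 rest on few counts, down to 5 in a library for Tlr12, so their spreads hold more counting error.

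Among the genes that carry Toll-like receptor and NOD signals to NF-kB and interferon factors, all 33 listed were tested, 1 rose and 3 fell, with a median log2 fold change of -0.20. These are 3.03% and 9.09% of the list, against 13.9% and 8.79% of all genes tested, so the share that fell was near the background. Irak2, a kinase of this route, fell (19.95 ± 3.73 against 56.0 ± 18.1 cpm, -1.48, adjusted p = 0.000726). Tnfaip3, which encodes the brake A20, fell (-1.59, adjusted p = 0.00331), as did Nfkbib, an inhibitor of NF-kB (-0.73, adjusted p = 0.00653), and Irak3, an inhibitory IRAK, rose (1.997, adjusted p = 0.00829). With the mouse as a block in edgeR only Irak2 kept its call, the adjusted p being 0.0123 for Tnfaip3, 0.0137 for Nfkbib and 0.0178 for Irak3. In limma-voom with this block Tnfaip3 kept its call (adjusted p = 0.00607), and Nfkbib (0.0108) and Irak3 (0.0117) did not. Leaving out the GUCY2C hi library of mouse 15 gave 7 calls, and several other single libraries 1 or 2.

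Of 15 genes that sense nucleic acids in the cytosol, 14 were tested, none rose and 3 fell (21.4% of those tested, against 8.79% of all genes), with a median of -0.81. Tbk1, the kinase that activates interferon factors, was at 31.8 ± 4.76 against 65.8 ± 10.97 cpm (-1.05, adjusted p = 0.000778). The RNA helicase gene Ddx58 (-1.59, adjusted p = 0.00201) and its adaptor Mavs (-0.94, adjusted p = 0.00608) also fell. None of the 3 overlapped between the groups. The Mavs call was lost on removal of 7 of the 10 libraries, holding without GUCY2C hi mouse 12 or 15 or GUCY2C med mouse 7.

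The substrates of inflammasomes and partners in cell death numbered 20, of which 17 were tested, 2 rose and 5 fell (median -0.71). These are 11.8% and 29.4% of those tested, against 13.9% and 8.79% of all genes, so the share that rose was near the background. Nek7, a partner of NLRP3, rose (16.0 ± 7.28 against 4.42 ± 1.18 cpm, 1.82, adjusted p = 0.00235), as did Ninj1, which ruptures membranes at the end of lytic death (91.6 ± 28.3 against 38.3 ± 9.24 cpm, 1.26, adjusted p = 0.0024). Casp6, a caspase gene, fell (264 ± 79.7 against 643 ± 135 cpm, -1.28, adjusted p = 0.00251). Tradd, an adaptor of death receptors (-0.99, adjusted p = 0.00282), and the channel gene Panx1 (-0.71, adjusted p = 0.00708) fell too. With the mouse as a block in edgeR the calls of Nek7 (adjusted p = 0.0206), Ninj1 (0.0123), Casp6 (0.0124) and Panx1 (0.0176) were lost. In limma-voom with this block Ninj1 (adjusted p = 0.00725) and Casp6 (0.00584) kept theirs, and Nek7 (0.0105) and Panx1 (0.0140) did not. Panx1 kept its call on removal of 2 of the 10 libraries. The cytokine genes Il18 and Il1b were singled out after their values were seen. Il18, a caspase-1 substrate, was at 35.5 ± 32.7 against 158 ± 52.2 cpm with no overlap but not called (-2.15, adjusted p = 0.0159), and Il1b did not pass the filter.

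Of 16 genes for recognizing bacteria outside the cell, 6 were tested and none was called in edgeR, while limma-voom called 2 and DESeq2 3. Over all genes limma-voom called 13.6% higher and 11.4% lower, and DESeq2 18.9% and 14.3%. Cd14, the lipopolysaccharide co-receptor, named after its values were seen, was at 15.5 ± 8.86 against 42.1 ± 15.6 cpm and was lower in all 5 mice (-1.44, adjusted p = 0.0118).

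Members under the filter were mostly NLR genes. Nlrc5, which drives MHC class I genes, had 18 and 12 counts over the GUCY2C hi and GUCY2C med groups, and Nlrc3 had 5 and 5. Nlrp1a, Nlrp3 and Nlrp9c had 1 and 0. Nlrp12, Nlrp14, Nlrp1b, Nlrp2, Nlrp4a, Nlrp4b, Nlrp4c, Nlrp4e, Nlrp4f, Nlrp5 and Nlrp9a had no count. The transcript of Nlrp3, the best known inflammasome sensor of myeloid cells, was thus not detectable beyond 1 read at this depth.

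The counts of members under the alternatives are to be read against the share of all genes called in the same fit. The shares called higher and lower were 14.1% and 8.06% with RLE factors, 14.8% and 7.62% with upper-quartile factors, 18.5% and 3.55% with no TMM factors, 7.27% and 3.96% with no filter. They were 14.2% and 9.05% with at least 10 counts in every library, 11.6% and 8.8% with the mouse as a block in limma-voom, 17.9% and 14.4% with the GUCY2C hi libraries of mice 12 and 15 removed, 11.7% and 10.7% with mice 12 and 15 removed. Leaving out 1 library, they were 11.4% and 3.32% without GUCY2C hi mouse 2, 10.9% and 3.8% without GUCY2C hi mouse 7, 13.3% and 9.1% without GUCY2C hi mouse 12, 10.6% and 4.48% without GUCY2C hi mouse 14, 16.5% and 10.4% without GUCY2C hi mouse 15. They were 11.8% and 4.38% without GUCY2C med mouse 2, 13.0% and 6.18% without GUCY2C med mouse 7, 12.4% and 4.78% without GUCY2C med mouse 12, 10.6% and 4.86% without GUCY2C med mouse 14, 10.8% and 3.4% without GUCY2C med mouse 15. At an adjusted p under 0.05 with all libraries they were 21.4% and 17.6%, and 8 members were higher and 12 lower.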

How the data were processed

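RNA was sequenced from 5 GUCY2C hi and 5 GUCY2C med sorts. The reads were aligned with STAR and counted per gene by the sequencing provider, and the authors deposited raw counts and, from the same reads, FPKM values. The counter, annotation, strand setting and gene length behind the FPKM are not given in the sources used here. The labels name mm9, but the positions of 99.8% of 37791 matched genes overlapped GRCm38.p6, so positions are given in GRCm38. The submitters' processing notes name limma 3.40.6 and edgeR 3.26.8. Files and columns with the authors' own comparison (fold changes, statistics and p-values) and 10 further per-sample columns of normalized values were not used.

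Counts were fitted in R 4.3.3 with edgeR 4.0.16 (quasi-likelihood F test, TMM factors, no mouse term; biological coefficient of variation 0.458), for 15703 genes over 0.5 cpm in at least 3 of 10 libraries, and called at a Benjamini-Hochberg adjusted p under 0.01. Values in cpm are TMM-scaled. The test reports no SE, and the SE given is the absolute log2 fold change divided by the square root of its F statistic. That fold change is shrunk by a prior count of 2, so the SE can be too small for genes with few counts. The script was tested on simulated counts. Alternatives were limma 3.58.1 (voom), DESeq2 1.42.0, other scalings and filters, a threshold of 0.05, a mouse block, leaving out each library, and leaving out mice 12 and 15. Libraries with the same number were taken to come from the same mouse, because 5 mice were each sorted into both groups; no label ties the number to the mouse, and the block and the values within mice rest on this. Deviations of same-numbered libraries correlated at -0.11, -0.22, 0.27, -0.12 and 0.06 (mice 2, 7, 12, 14 and 15), so only number 12 deviated together by over 0.1. Pathway genes past the threshold were named, except some that are counted in their list but not reported here. The members and lists were chosen with earlier results of these data known. Promoters for Gsdma, Gsdma2, Gsdmc, Gsdmc2, Gsdmc4, Gsdmd, Tlr4, Tlr7, Ripk2, Nlrp10, Nlrp14, Nlrc5 and Ticam2 were not used here.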

Additional observations from a re-analysis of the deposited data

Results flagged for a closer look

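Of 72 groups of 5 libraries checked (36 genes in 2 groups), 8 held a library whose gap to the nearest other exceeded 0.71 of the group's range. This cutoff flags about 1 in 20 groups of normally distributed values, a rate that need not hold for unlogged cpm, some of them near 0. Tirap was at 5.51 cpm in the GUCY2C hi library of mouse 2, the next being 3.18. Tlr12 was at 0.0936 cpm in the GUCY2C med library of mouse 2 and 0 in the other 4, which is a single count. Casp1 was at 322 cpm in the GUCY2C med library of mouse 7, the next being 244, and Casp8 at 55.2 cpm in the GUCY2C hi library of mouse 7, the next being 81.2. Gsdma2 was at 0.963 cpm in the GUCY2C med library of mouse 7, the next being 0.257. In the GUCY2C hi library of mouse 12, Gsdmc3 was at 3.94 cpm (next 0.54) and Gsdmc4 at 12.4 cpm (next 3.08). Gsdmc4 was also at 45.4 cpm in the GUCY2C med library of mouse 14 (next 10.4).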

How the results depend on the processing

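The direction of 35 of the 36 tested members held under every alternative that tested them. Casp12, near 0, turned to -0.11 in limma-voom, -0.0316 and -0.0115 with the replicate block in edgeR and limma-voom, and ranged from -0.24 to 0.26 with 1 library left out, below 0 without GUCY2C hi mouse 14 or 15 or GUCY2C med mouse 2. Members called higher numbered 5 to 7 with 1 library left out and 2 with at least 10 counts in every library, a filter that kept 23 members. Members called lower numbered 2 to 7 with 1 library left out, fewest without GUCY2C hi mouse 2 or GUCY2C med mouse 15 (2 each) and 3 without GUCY2C hi mouse 7 or GUCY2C med mouse 2. They numbered 5 with the replicate block in edgeR and 5 without TMM factors, a scaling that moved the median of all genes by 0.28, to 0.37, and left 6 members higher. The edgeR replicate block gave 1 relay gene and 4 inflammasome output genes, and the limma-voom block 1 bacterial recognition gene; the members whose calls the block ended are given with their values in the text.

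Genes called in the relay list numbered 11 in DESeq2, 2 with at least 10 counts in every library, 14 at 0.05, and 1 to 7 with 1 library left out. Cytosolic nucleic acid genes numbered 5 in limma-voom, 6 in DESeq2, 7 at 0.05 and 2 to 4 with 1 library left out. Inflammasome output genes numbered 11 in DESeq2, 4 without TMM factors, 13 at 0.05, and 2 to 10 with 1 library left out, fewest without GUCY2C hi mouse 2 or GUCY2C med mouse 15 and most without GUCY2C hi mouse 15. Bacterial recognition genes numbered 2 in limma-voom, 3 in DESeq2, 1 with at least 10 counts in every library, 3 without the GUCY2C hi libraries of mice 12 and 15, 2 without both mice, 3 at 0.05 and 0 to 2 with 1 library left out. The cause of these shifts was not tested. Genes with few counts, Tlr5, Tlr12 and Nlrp10 among them, are limited by depth, and their fitted fold changes and SE depend on the prior count. In DESeq2 the log2 fold change was 5.71 for Tlr5 and 6.21 for Tlr12.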
